A study of Arabidopsis thaliana with 8 samples.

Results

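Nitrate uptake and reduction genes were followed as 10 members fixed by gene identifier. They were the nitrate reductase genes NIA1 and NIA2, the nitrite reductase gene NIR1, the siroheme synthesis gene UPM1, the reductant supply genes G6PD2 and RFNR1 (root FNR1), the nitrate transporter genes NRT1.1, NRT2.1 and NRT2.6, and the vacuolar nitrate exchanger gene CLCa. Of these 10 genes 6 had a row among the 2958 genes of the authors' deposited table, and 4 had none. The 4 genes without a row were UPM1, RFNR1, NRT1.1 and NRT2.1.

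Plants take up nitrate through NRT1 and NRT2 carriers and either store it in the vacuole, where CLCa exchanges it for protons, or reduce it. Cytosolic nitrate reductase, a molybdenum enzyme, makes nitrite, and plastid nitrite reductase, which carries a siroheme group made through UPM1, turns nitrite into ammonium with electrons from ferredoxin. Leaf cells draw these electrons from photosynthesis in the light. In non-green plastids the oxidative pentose phosphate pathway, entered by glucose-6-phosphate dehydrogenase, gives NADPH, which a root-type ferredoxin reductase such as RFNR1 passes to ferredoxin.

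The libraries, 4 labelled div1 and 4 labelled ev, held poly(A) RNA of leaf protoplasts made from Arabidopsis Col-0 rosettes grown for 4 weeks. Protoplasts, cells freed of their walls by enzyme, had taken up plasmid with polyethylene glycol and were kept overnight. DIV1 is a MYB-type transcription factor, the plasmid-borne factor of the TARGET assay named in the series, and the labels do not expand ev. No label states separate plants or transfections for the replicates, and the spread between libraries that the p-values measure may be technical.

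The introduced gene is listed at 7.61 (SE 0.88) on the log2 fold scale in the authors' deposited table. The table names no numerator, and this sign was used to read positive values as higher in div1. The table holds called genes and no values per library, so the depth and the spread of each library are unknown. Errors are therefore the authors' standard errors, and a 95% interval is the fold change with its normal interval from that error. A gene without a row was either not tested or had a statistic smaller in size than 2.64, the smallest listed, and its level cannot be given. Of 18 markers of mesophyll, guard cell, epidermis and vascular cells, 0 had a row, against 16.4% of all genes tested. The labelled tissue could therefore not be checked by level in this table. In such bulk libraries fewer cells of a type and less RNA per cell cannot be told apart.

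The nitrate response element is a DNA motif bound by NIN-like proteins, which switch on nitrate genes. Its core is GACNCTT followed by 10 bases of any kind and AAG. This core was searched on both strands in each member with 3000 bases on either side, a window chosen after seeing the data. There 4 of 10 members held it. The same search found it in 5.45% of 27434 protein-coding genes. These sites are shown because the motif is known from nitrate genes in general, and whether it acts in these members was not tested. Capitals mark the fixed part of the motif, and each site is read 5′ to 3′ on its own strand in TAIR10.1.
NIR1, chr2:6810459-6810478, plus strand: GACCCTTtacattgctcAAG
NIA1, chr1:29241963-29241982, plus strand: GACCCTTtttgatatatAAG
CLCa, chr5:16380860-16380879, minus strand: GACACTTgtcccaacatAAG
RFNR1, chr4:2736527-2736546, plus strand: GACACTTctctctgcaaAAG

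The NIR1 site lay inside the annotated 5′ UTR, with 73 bases between it and the start codon. The NIA1 site lay 2478 bases before the gene start, outside any annotated gene. The CLCa and RFNR1 sites lay 435 and 1985 bases after the gene end, inside the neighbouring genes AT5G40880 and AT4G05380. In the 250 bases before the annotated start site, the window planned beforehand, 0 of 10 members held the motif, against 0.146% of 27443 protein-coding genes. A match describes letters, not binding.

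The windows of 250 bases before the annotated start site are shown for the 3 members that were lower in div1 and for NRT2.6 and CLCa, which were higher. The window of G6PD2, the other higher member, lies partly in the neighbouring gene AT5G13100 and is not shown; it held none of the motifs marked. Capitals mark GATAAG, a sequence of the I-box type known from MYB-related factors, or ACGTG, the core of bZIP sites, on either strand.
NIA1, chr1:29239485-29239734, minus strand: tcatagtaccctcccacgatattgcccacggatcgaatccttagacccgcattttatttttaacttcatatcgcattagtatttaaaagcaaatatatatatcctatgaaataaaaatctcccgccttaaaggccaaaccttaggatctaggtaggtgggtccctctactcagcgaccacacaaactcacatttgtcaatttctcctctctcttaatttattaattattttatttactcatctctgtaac
NIA2, chr1:14158202-14158451, plus strand: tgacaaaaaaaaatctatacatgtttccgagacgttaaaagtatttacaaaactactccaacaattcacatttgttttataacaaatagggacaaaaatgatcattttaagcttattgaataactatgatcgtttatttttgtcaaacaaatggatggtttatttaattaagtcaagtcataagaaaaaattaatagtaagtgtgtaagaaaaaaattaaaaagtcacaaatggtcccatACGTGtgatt
NIR1, chr2:6810145-6810394, plus strand: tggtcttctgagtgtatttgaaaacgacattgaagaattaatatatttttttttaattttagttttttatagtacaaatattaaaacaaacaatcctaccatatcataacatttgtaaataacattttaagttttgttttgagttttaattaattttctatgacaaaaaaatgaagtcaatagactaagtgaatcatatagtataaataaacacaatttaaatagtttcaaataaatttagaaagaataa
NRT2.6, chr3:16479560-16479809, minus strand: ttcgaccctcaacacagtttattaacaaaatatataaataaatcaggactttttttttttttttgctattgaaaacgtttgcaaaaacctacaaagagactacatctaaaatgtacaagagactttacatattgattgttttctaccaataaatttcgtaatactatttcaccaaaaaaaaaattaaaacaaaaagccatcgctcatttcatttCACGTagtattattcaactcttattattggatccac
CLCa, chr5:16385425-16385674, minus strand: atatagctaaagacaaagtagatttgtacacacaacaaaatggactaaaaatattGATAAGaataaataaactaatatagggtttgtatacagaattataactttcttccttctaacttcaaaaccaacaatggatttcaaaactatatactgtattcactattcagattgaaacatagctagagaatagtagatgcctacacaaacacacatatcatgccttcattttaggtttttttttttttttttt

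GATAAG stood in this window of CLCa and NRT2.1, that is in 2 of 10 members, and in 12.3% of all protein-coding genes. ACGTG stood in the windows of NIA2 and NRT2.6, 2 of 10 members against 22.9% of all protein-coding genes. The related motif GGATAA was in the window of 0 of 10 members and of 12.5% of all protein-coding genes, and the G-box CACGTG in 0 of 10 and 6.49%. GATAAG can overlap GGATAA, and ACGTG lies inside CACGTG. Of the 3 members that were lower in div1, NIA2 held ACGTG in the window, and NIA1 and NIR1 held none of these motifs.

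Among the members, the reductase genes NIA1, NIA2 and NIR1 were lower in div1, and the carrier gene NRT2.6, the storage gene CLCa and the NADPH supply gene G6PD2 were higher. Of the 10 members, the authors' deposited table called 3 higher and 3 lower at an adjusted p under 0.05, and 4 had no row. The deposited p-values imply 18010 genes tested, of which the shares called were 16.4% in either direction, 9.14% higher and 7.28% lower. The share of members with a call, 60%, was above that background, but the members were chosen with earlier results known, so the excess is a description. At an adjusted p under 0.01 it was 5 members and 10.9% of all genes, with a Bonferroni threshold 1 member and 4.58%, and at a change of at least 2-fold 2 members and 5.67%. Counting calls at mean counts of 100 or more gave 5 members and 15.0% of all genes tested, and counting calls in genes that overlap no neighbour gave 5 members and 12.0%. These filters could be applied to called genes alone, so the last shares are still of all genes tested and not of the genes passing the filter.

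**Figure D1:**
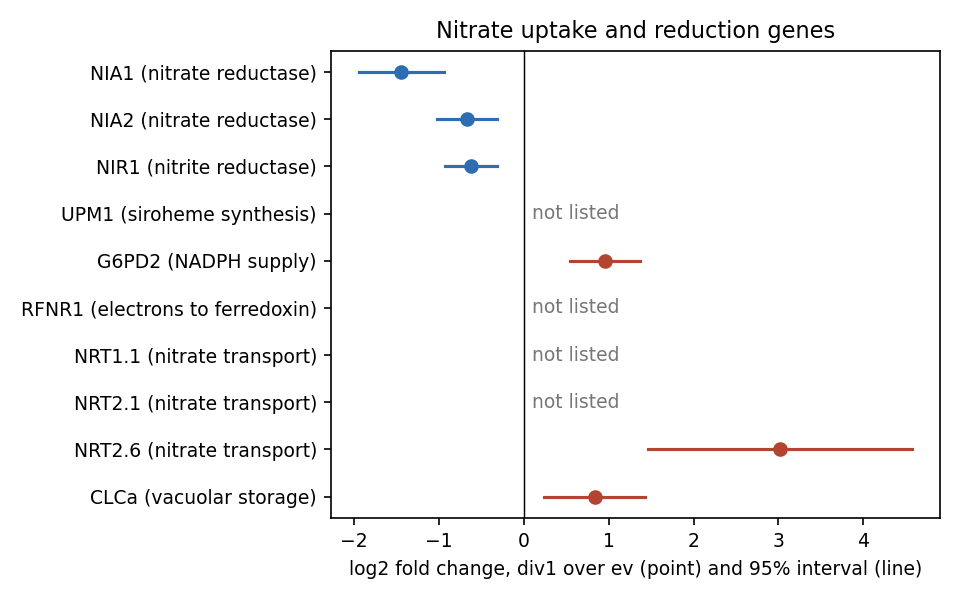
Log2 fold changes of the members by role, div1 over ev, as points with 95% intervals from the authors' standard errors; members with no row are marked. The 3 reductase genes lie left of 0, from -1.44 to -0.62, and G6PD2, NRT2.6 and CLCa lie right of it.

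NIA1 (AT1G77760, chr1:29235721-29239484, minus strand, TAIR10.1), annotated as the cytosolic minor isoform of nitrate reductase, fell the most among the members. Its mean normalized count over all libraries was 495, and its estimated group means were 267 in div1 and 724 in ev. The authors' deposited table put its log2 fold change at -1.44 (SE 0.25, DESeq2 adjusted p = 5.16e-07), with an interval of -1.94 to -0.94. By size it stood at place 188 of the 1312 lower genes.

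NIA2 (AT1G37130, chr1:14158452-14161938, plus strand), the other nitrate reductase gene, had a far higher level. In the authors' deposited table its mean normalized count was 17650, place 118 of all 2958 called genes. Its estimated group means were 13629 in div1 and 21671 in ev. The authors' deposited table gave NIA2 a log2 fold change of -0.67 (SE 0.18, DESeq2 adjusted p = 0.00251), with an interval of -1.02 to -0.32. This is close to the median of -0.76 over all lower genes.

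NIR1 (AT2G15620, chr2:6810395-6812941, plus strand), which carries out the step from nitrite to ammonium, fell by a similar amount. Its mean normalized count was 2592, with estimated group means of 2047 in div1 and 3137 in ev. The authors' deposited table gave NIR1 a log2 fold change of -0.62 (SE 0.16, DESeq2 adjusted p = 0.00114), with an interval of -0.92 to -0.31. On the linear scale the levels in div1 were lower by 63.1% for NIA1, by 37.1% for NIA2 and by 34.8% for NIR1.

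Per kilobase of exon, NIA2 led the nitrate reductase transcripts in both groups. NIA1 had an estimated 84.6 normalized counts per kilobase in div1 and 229 in ev, and NIA2 had 4252 in div1 and 6762 in ev. NIA1 thus made up an estimated 1.95% of the summed level per kilobase in div1 and 3.28% in ev. The summed level of both genes was 38.0% lower in div1. The sum therefore follows NIA2, and these estimates carry no error of their own.

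The coding sequences of NIA1 and NIA2 were identical at 74.2% of 2720 aligned bases. Neither gene shared a run of 50 bases with the transcripts of any other gene, and neither overlapped an annotated neighbour. The same held for NIR1 and NRT2.6.

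**Figure D2:**
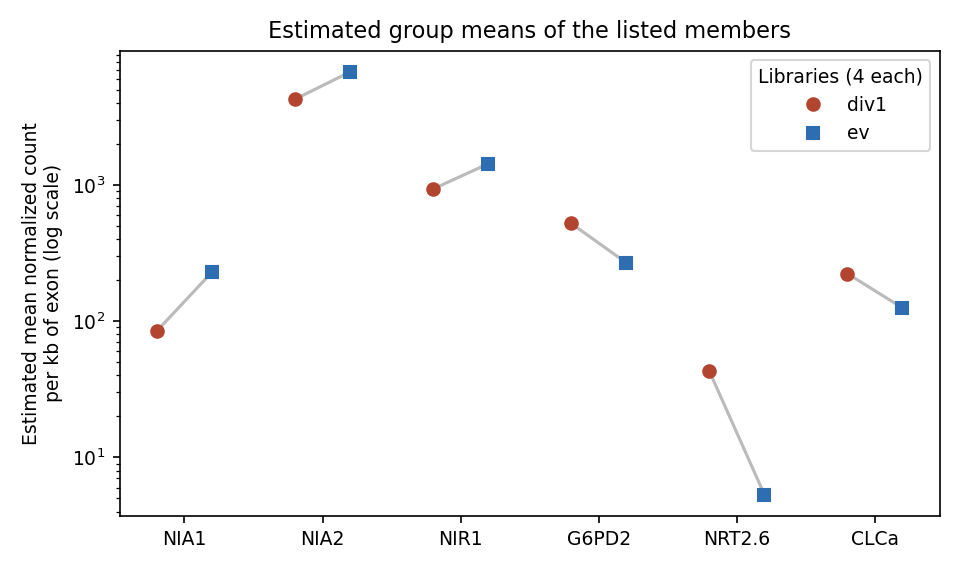
Estimated mean normalized counts per kilobase of exon for the 6 listed members, div1 (circles) left of ev (squares), on a log axis; no error can be given for these estimates. NIA2 is highest in both groups, and NRT2.6 is lowest, at 43.3 in div1 and 5.34 in ev.

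Of the 3 members that serve nitrite reductase, G6PD2 alone had a row. UPM1, a methyltransferase on the way to siroheme, and RFNR1, the root-type ferredoxin reductase, were not listed. UPM1 overlaps AT5G40855 on the opposite strand over 7.46% of its exon bases, and the kit named in the labels does not mark strand. G6PD2 (AT5G13110, chr5:4158639-4161845, plus strand), a plastid glucose-6-phosphate dehydrogenase, had estimated group means of 1206 in div1 and 620 in ev. The authors' deposited table gave G6PD2 a log2 fold change of 0.96 (SE 0.21, DESeq2 adjusted p = 1.21e-04), with an interval of 0.54 to 1.38, a 1.95-fold higher level in div1.

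Among the carriers, NRT2.6 rose and the best known uptake genes had no row. NRT1.1, the dual-affinity carrier and nitrate sensor, and NRT2.1, the main high-affinity carrier of roots, were not listed. NRT2.1 shares 8.44% of its runs of 50 bases with NRT2.2, which had no row either. NRT2.6 (AT3G45060, chr3:16477561-16479559, minus strand), annotated as a member of the high-affinity family, had a mean normalized count of 46.5, place 2855 of 2958. Its estimated group means were 82.7 in div1 and 10.2 in ev.

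For NRT2.6 the authors' deposited table gave a log2 fold change of 3.02 (SE 0.79, DESeq2 adjusted p = 0.00179), place 85 of the 1646 higher genes. Its interval ran from 1.47 to 4.57, or from 2.76-fold to 23.8-fold, so the size is loosely fixed. The standard error would correspond to a coefficient of variation of 77.7% between libraries if both groups of 4 varied alike, against 15.3% for NIR1. The 200 called genes nearest to NRT2.6 in mean had a median standard error of 0.54 in the authors' deposited table. The closest relative compared, NRT2.3, was identical at 81.9% of aligned coding bases and had no row.

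CLCa (AT5G40890, chr5:16381314-16385424, minus strand), the exchanger that loads nitrate into the vacuole, was the weakest call among the members. Its estimated group means were 774 in div1 and 433 in ev. The authors' deposited table gave CLCa a log2 fold change of 0.84 (SE 0.30, DESeq2 adjusted p = 0.0373), with an interval of 0.25 to 1.43. The 200 called genes nearest to CLCa in mean had a median standard error of 0.20 in the authors' deposited table. CLCa overlaps AT5G40880 on the opposite strand over 1.13% of its exon bases, and AT5G40880 had no row. CLCb, identical to CLCa at 82.4% of aligned coding bases, was not listed.

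Ordered by log2 fold change the members ran NIA1, NIA2, NIR1, CLCa, G6PD2 and NRT2.6. Taking the estimates as independent, which genes of the same libraries need not be, the interval of the difference left out 0 in 13 of 15 pairs. For pairs called in opposite directions this was fixed by the calls, since every listed statistic was at least 2.64 in size. Only pairs called in the same direction could come out either way. NIA1 minus NIA2 was -0.77 (interval -1.38 to -0.16) and NIA1 minus NIR1 was -0.82 (interval -1.41 to -0.24), both on the log2 scale. NIA2 minus NIR1 was -0.05 (interval -0.52 to 0.41), and CLCa minus G6PD2 was -0.12 (interval -0.85 to 0.61). These last neighbours were not separated, which does not show that they changed alike.

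**Figure D3:**
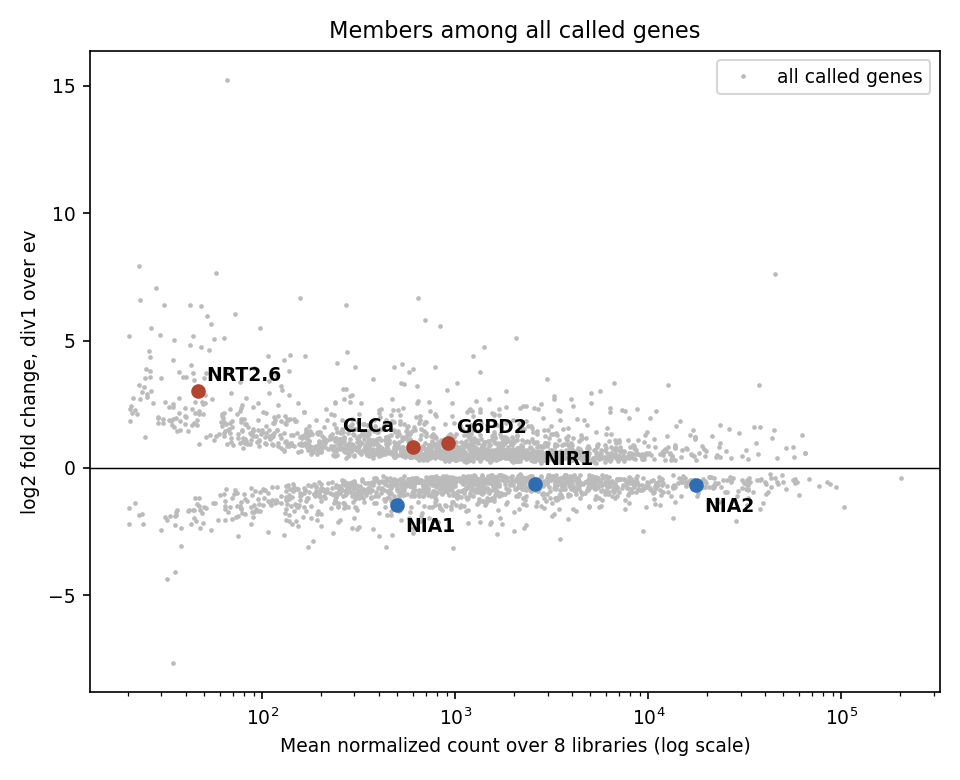
Log2 fold change, div1 over ev, against the mean normalized count over 8 libraries (log axis) for all 2958 called genes (grey) and the 6 listed members (coloured). NIA2 sits at the high end of the counts at 17650, and NRT2.6 at the low end at 46.5.

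Other genes of nitrate transport, storage, reductant supply, cofactors and carrier regulation were counted as 72 genes in 8 lists drawn up from general knowledge of the pathway. The authors' deposited table called 8 of them higher and 6 lower, and 58 had no row, a share of 19.4% called against the background of 16.4%. The median log2 fold change of the 14 called genes was 0.38, against 0.41 over all called genes. These lists as a whole therefore lay near the background.

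The carrier lists held 4 higher calls and 1 lower call among 23 genes, shares of 17.4% and 4.35%, against 9.14% higher and 7.28% lower over all genes tested. Of 7 genes of the NRT2 and NAR2 type, NRT3.1, whose product partners the NRT2 carriers, was called higher, and 6 had no row. The authors' deposited table put NRT3.1 at 0.47 (SE 0.13) on the log2 fold scale. Of 16 genes taken as carriers of the NPF family, 3 were higher, 1 was lower and 12 had no row. The authors' deposited table had AT1G72140, annotated as a major facilitator superfamily protein, at a log2 fold change of 1.78 (SE 0.17, DESeq2 adjusted p = 1.58e-22). AT1G72130, with the same annotation, was higher by 0.99 (SE 0.28) per the authors' deposited table.

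Also in the authors' deposited table, NRT1:2, also known as NPF4.6 and as an importer of abscisic acid, was higher by a log2 fold change of 0.89 (SE 0.21). The lower carrier there, that is in the authors' deposited table, was NAXT1, a nitrate efflux transporter, at -1.10 (SE 0.23). Of 8 vacuolar and anion channel genes, 0 had a row, against 16.4% of all genes tested. At that share so short a list can easily hold none.

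Genes of the oxidative pentose phosphate pathway were called in both directions. Of 15 reductant supply genes 2 were higher, 2 lower and 11 had no row. These are shares of 13.3% each way, against 9.14% higher and 7.28% lower over all genes tested. In the authors' deposited table the 6-phosphogluconolactonase gene PGL1 was higher by a log2 fold change of 2.03 (SE 0.43, DESeq2 adjusted p = 6.77e-05). AT3G02360, annotated as a 6-phosphogluconate dehydrogenase, was higher there by 0.67 (SE 0.14, DESeq2 adjusted p = 4.61e-05). The lower calls were much weaker. PGL1 and G6PD3 overlap annotated genes on the opposite strand.

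In the authors' deposited table G6PD3, a plastid-type isoform, was lower with a log2 fold change of -0.65 (SE 0.24, DESeq2 adjusted p = 0.0437). G6PD6, of the cytosolic type, was lower there with one of -0.34 (SE 0.13, DESeq2 adjusted p = 0.0471). Both calls lay just under the threshold of 0.05. G6PD2 minus G6PD3 was 1.61 on the log2 scale, with an interval of 0.98 to 2.23 that takes the estimates as independent. Calls in opposite directions fix that this interval leaves out 0, so it adds no evidence to the calls. The coding sequences of G6PD2 and G6PD3 were identical at 84.5% of aligned bases, and G6PD2 shared 0.133% of its runs of 50 bases with G6PD3. Per kilobase the estimated level of G6PD2 was 522 in div1 and 268 in ev, and that of G6PD3 was 52.0 in div1 and 81.3 in ev.

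Cofactor genes were mostly without a row, as were all genes tested, of which 16.4% were called. The shares called were 10% of the cofactor genes and 14.3% of the other enzymes, on 1 gene each. Of 10 genes for siroheme and molybdenum cofactor, the authors' deposited table called MOT1 alone, a molybdate transporter gene with a log2 fold change of 1.40 (SE 0.39). Of 7 other enzymes or enzyme activators using siroheme or molybdenum, the authors' deposited table called AAO3, which makes abscisic acid, higher by a log2 fold change of 0.28 (SE 0.09). AAO3 overlaps AT2G27160 on the opposite strand over 13.8% of its exon bases. Both haemoglobin genes examined, HB1 and HB2, had no row.

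Among 7 genes that regulate the carriers, 0 were higher, 3 were lower and 4 had no row. The lower share was 42.9%, against 7.28% of all genes tested, and rests on 3 genes. CIPK23, a kinase that phosphorylates NRT1.1, was lower by a log2 fold change of -0.32 (SE 0.10, DESeq2 adjusted p = 0.0146) per the authors' deposited table. NLA, a ubiquitin ligase, was lower there by one of -0.64 (SE 0.23, DESeq2 adjusted p = 0.0389). ABI2, a phosphatase gene, fell further in the authors' deposited table, with -1.12 (SE 0.22, DESeq2 adjusted p = 1.16e-05) on that scale. Of these lower genes ABI2 alone had an adjusted p under 0.01. NLA overlaps annotated genes on the opposite strand.

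**Figure D4:**
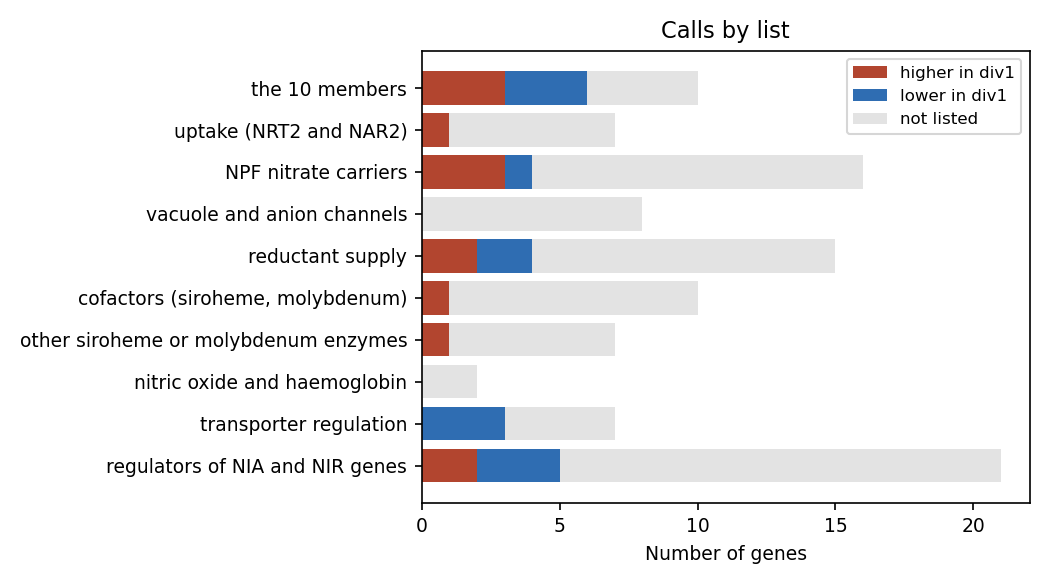
Number of genes called higher in div1, called lower in div1 or not listed, for the 10 members, the 8 pathway lists and the regulators of the NIA and NIR genes. Each list other than the members has more genes without a row than with one.

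Of 21 regulators of the NIA and NIR genes 2 were higher, 3 lower and 16 had no row, a share of 23.8% called against 16.4% of all genes tested. In the authors' deposited table NLP7, a NIN-like protein that binds nitrate response elements, was higher by a log2 fold change of 0.56 (SE 0.16). Its relatives NLP4, with -0.52 (SE 0.13), and NLP5, with -0.78 (SE 0.23), were lower in the authors' deposited table. NLP7 minus NLP4 was 1.09 with an interval of 0.69 to 1.48, taking the estimates as independent. As these 2 genes were called in opposite directions, that interval had to leave out 0 and adds no evidence to the calls. Per the authors' deposited table HYH, a relative of the light regulator HY5, was lower with a log2 fold change of -0.94 (SE 0.23), and TGA4, a bZIP factor, was higher with 0.56 (SE 0.16). NLP4, NLP5 and TGA4 overlap annotated genes on the opposite strand.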

How the data were processed

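Leaf protoplast RNA from 4 div1 and 4 ev libraries was measured. The submitters' processing notes name TAIR10 as the build and list fastp 0.21.0, HISAT2, featureCounts 2.0.1 and, for the comparison by the authors, DESeq2. Their settings were not stated. Per the file headers the authors' deposited table holds, for each called gene, the mean of its normalized counts (a signal over all 8 libraries). It further holds, as deposited, a log2 fold change and standard error, the Wald statistic (a score), and a raw and an adjusted p-value. No values per library were used, so depth is unknown and no sample test was run. A gene is called where the adjusted p of the authors is under 0.05.

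The number of genes tested is the largest adjusted p times rank over p, a step tested on simulated data. Group means were estimated from the mean and the fold change with 4 libraries a group; each printed estimate lies above 3 counts over a group. Intervals are normal at 95%. The coefficient of variation is read from the authors' standard error, whose dispersion DESeq2, as run by the authors, draws towards a trend.

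Genes, exon lengths and sequence came from RefSeq's TAIR10.1; the submitters name TAIR10, and the files give no coordinates to convert. All 10 members matched, and 1 gene of the lists did not. Shared runs of 50 bases do not depend on the read length, which was not stated. Protein sequences were not used here.

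The members and lists were chosen with earlier results of these data known. Named are all members, each called pathway gene and each called regulator. Motif windows around the start codon, of 1000 bases and of 3000 bases on either side were chosen after seeing the data. The steps here used Python 3.11.15 with biopython 1.88, pandas 2.3.3, numpy 2.4.6, scipy 1.17.1, statsmodels 0.14.6 and matplotlib 3.10.9.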

Additional observations from a re-analysis of the deposited data

How the results depend on the processing

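The count of 6 members called was 5 at an adjusted p under 0.01 (without CLCa), 5 at a mean count of at least 100 (without NRT2.6) and 5 among genes with no overlapping neighbour (without CLCa). It was 1 by a Bonferroni threshold over the tested genes, NIA1, and 2 at a change of at least 2-fold, NIA1 and NRT2.6. Among the 72 pathway genes, the count of 14 called was 10 at an adjusted p under 0.01, with 8 higher and 2 lower. It was 13 at a mean of at least 100, 10 with no overlapping neighbour, 4 by Bonferroni and 5 at 2-fold. In that order, the shares called of all genes tested were 10.9%, 15.0%, 12.0%, 4.58% and 5.67%. A stricter threshold keeps fewer genes by construction. With a normal prior drawn towards 0, of variance 1.73 taken from the called genes alone, the log2 fold change of NRT2.6 became 2.22. The other 5 members moved by less than their standard errors. Called genes are selected for large changes, so this prior is wide. It could hardly move members with small errors and is no check on them. With windows of 250 bases before the start codon, chosen after seeing the data, GATAAG was in NIA1 and NRT2.1 and the long nitrate response motif in NIR1, against 0.182% of protein-coding genes. There ACGTG was in 4 members (NIA2, NIR1, G6PD2 and NRT2.6), against 20.0%. In 1000 bases before the start site, also chosen after seeing the data, the motif GGATAA was in 4 members, against 38.7% of protein-coding genes. The motif GATAAG was there in 4, against 40.6%, and the motif ACGTG in 4, against 54.4%. The long nitrate response motif was in 0 of 10 members in these 1000 bases, against 0.499%. Its first part GACNCTT was in 2, against 25.9%, and CACGTG in 0, against 14.8%. Leaving out a replicate was not run, since no values per library were used here. No paired analysis was possible because the table used here holds no values per library.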
